A study of Homo sapiens with 24 samples.

Results

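Nuclear receptors are transcription factors, most of which are switched by a small lipophilic ligand. Described here is the mRNA of 7 of them in T-47D cells, a human estrogen receptor-positive breast cancer line: ESR1, PGR, NR3C1, RARA, VDR, NR2F2 and ESRRA. They were taken by their symbols from the count tables and are 7 of 26364 genes listed there, and all 7 passed the filter on low counts in each comparison. T-47D clones were WT at ESR1, which encodes estrogen receptor alpha (ER), or were heterozygous for the Y537S or the D538G substitution in the endogenous ESR1 gene. All cells were kept in hormone-deprived medium and were transfected at 10 nM for 24 h. The Y537S clones received a mimic of miR-301b-3p or miR-331-3p, a mimic negative control, an inhibitor of let-7f-5p, or an inhibitor negative control. The D538G clones received a mimic of miR-301b-3p or miR-181c-5p or the mimic control, and the WT clones received each of the 3 mimics or the mimic control. Each of the 12 conditions had 1 library from each of 2 clones (Y537S clones 1 and 2, D538G clones A5 and C2, WT clones D1 and D4), so n is 2 per condition throughout, a genotype is represented by 2 clones, and the lines were treated as the replicates.

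ER, the progesterone receptor and the glucocorticoid receptor (ESR1, PGR and NR3C1) are steroid receptors. On hormone binding they occupy response elements in DNA and recruit coregulators, and in luminal breast cancer ER drives proliferation while PGR is itself a classical ER-induced gene. The retinoic acid receptor RARA and the vitamin D receptor VDR bind DNA as heterodimers with a retinoid X receptor, and both are linked to growth restraint and differentiation in breast epithelium. NR2F2 (COUP-TFII) and ESRRA (estrogen-related receptor alpha) are orphan receptors. ESRRA resembles ER in sequence, does not bind estradiol and is best known as a regulator of mitochondrial genes with PGC-1 coactivators. The Y537S and D538G substitutions lie in the ligand-binding domain of ER and give a receptor that is active without estrogen. A miRNA directs the silencing complex to mRNAs, mostly through pairing of its seed, bases 2 to 8, with sites in the 3′ UTR.

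The miRNAs whose mimics or inhibitor were used are shown first because their seeds determine which letters in a receptor transcript can pair with them. Mature sequences are from RefSeq (GRCh38.p14), 5′ to 3′, with the seed in capitals, and the 4 seeds differ from each other.
hsa-miR-301b-3p: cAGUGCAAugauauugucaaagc
hsa-miR-181c-5p: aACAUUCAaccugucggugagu
hsa-miR-331-3p: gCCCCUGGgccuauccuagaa
hsa-let-7f-5p: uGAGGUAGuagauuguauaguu

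Matches to bases 2 to 8 were searched in the 3′ UTR of 1 transcript of each gene, on the transcript strand only. The letters searched were TTGCACT for miR-301b, TGAATGT for miR-181c, CCAGGGG for miR-331 and CTACCTC for let-7f. A miR-301b match was present in 14.2% of the 18751 genes with an annotated 3′ UTR, a miR-181c match in 19.5%, a miR-331 match in 14.1% and a let-7f match in 9.84%. ESR1 (GRCh37, chr6:151977826-152450754, plus strand, 3′ UTR of 4308 bases) held 2 matches to miR-301b, 1 to miR-181c and 1 to miR-331. PGR (chr11:100900355-101000544, minus strand, 9492 bases of 3′ UTR) held 1 match to miR-301b, 2 to miR-181c, 1 to let-7f and 0 to miR-331. In NR3C1 (chr5:142657496-142815077, minus strand, 3955 bases) there were 1 match to miR-301b and 2 to miR-181c. RARA (chr17:38465432-38513895, plus strand, 1417 bases) held 2 matches to miR-331 and VDR (chr12:48235320-48336831, minus strand, 3209 bases) held 1. NR2F2 (chr15:96869167-96883492, plus strand) and ESRRA (chr11:64072969-64084215, plus strand) held none of the 4. A longer UTR offers more places for a match, and a match describes letters in the reference, not a site in use.

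The windows below are 30 bases of the GRCh37 reference around matches in the 5 receptors that have one, all within 3′ UTR exons, with the match in capitals. For the steroid receptors they show matches to mimics after which the mRNA was called lower below. The RARA and VDR windows were chosen because these transcripts did not fall with miR-331. The windows are therefore not a sample of all matches. Among those left out are the miR-301b matches of NR3C1 and PGR and the miR-331 match of ESR1. NR3C1 was not called with miR-301b.
ESR1, miR-301b, first match (chr6:152423855-152423884, plus strand): ggcacttcaattTTGCACTgtcttttgaga
ESR1, miR-301b, second match (chr6:152424306-152424335, plus strand): tgtaaacctcttTTGCACTttgaaaaagaa
ESR1, miR-181c (chr6:152422087-152422116, plus strand): ttatcagacaatTGAATGTagtaattctgt
PGR, miR-181c, first match (chr11:100907714-100907743, minus strand): gacacaagaaaaTGAATGTaggtctatcca
NR3C1, miR-181c, first match (chr5:142659183-142659212, minus strand): ttgaatgcttttTGAATGTtatttgttatt
RARA, miR-331, first match (chr17:38513491-38513520, plus strand): tgaaggggctggCCAGGGGcccgagctgcc
VDR, miR-331 (chr12:48237625-48237654, minus strand): cccaccccctccCCAGGGGagagggtctgg

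Levels are given as CPM (counts scaled to a common library total) with TMM library scaling, and differences as log2 fold changes ± SE from edgeR's quasi-likelihood test, called at a Benjamini-Hochberg adjusted p-value under 0.05 over all genes of that comparison. Libraries held 31379962 to 50526442 counts. All 7 luminal keratin, adhesion and transcription factor markers were above 1 CPM in each library (summed level 9072 to 14258 CPM), while the basal markers summed to 0.206 to 8.37 CPM, the mesenchymal markers to 48.6 to 82.4 CPM, the immune markers to 2.41 to 5.70 CPM and the endothelial markers to 0 to 0.197 CPM. Across all genes tested, the response to a mimic moved with transcript GC content, with a Spearman rho of 0.49 to 0.62 over the 7 mimic comparisons, against -0.0018 for Y537S versus WT and 0.07 for D538G versus WT. The rho was -0.11 for Y537S versus D538G and 0.22 for the let-7f inhibitor. Between the inhibitor control and the mimic control in Y537S cells it was 0.30, so a GC trend was also present between the 2 negative controls. This touches the 7 receptors unequally, since NR3C1 and PGR had a transcript GC content of 40.4% and 41.6%, ESR1 46.9%, NR2F2 49.8% and VDR 54%, against 61.9% for RARA and 63.8% for ESRRA (median of all genes 48.6%). Values with this trend removed are therefore given where they change a result, and the part of GC content in the responses was not tested.

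Mutant and WT clones given the mimic control were compared first, to ask how the ESR1 genotype sets the level of each receptor. ESR1 and NR2F2 mRNA were higher in both mutants, VDR was lower in both, and PGR was higher in Y537S and lower in D538G cells. In the Y537S clones 4 of the 7 receptors were higher and 1 lower than in WT, where 16.3% of all genes tested were higher and 12.7% lower. In the D538G clones 4 were higher and 2 lower, where 20.4% and 18.5% of all genes were. Y537S and D538G cells differed in 1 receptor, PGR, higher in Y537S, where 3.93% of all genes were higher and 2.26% lower. Genotype coincides with the clones and with the table in which a library was deposited, so these cannot be told apart from the mutation.

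**Figure D1:**
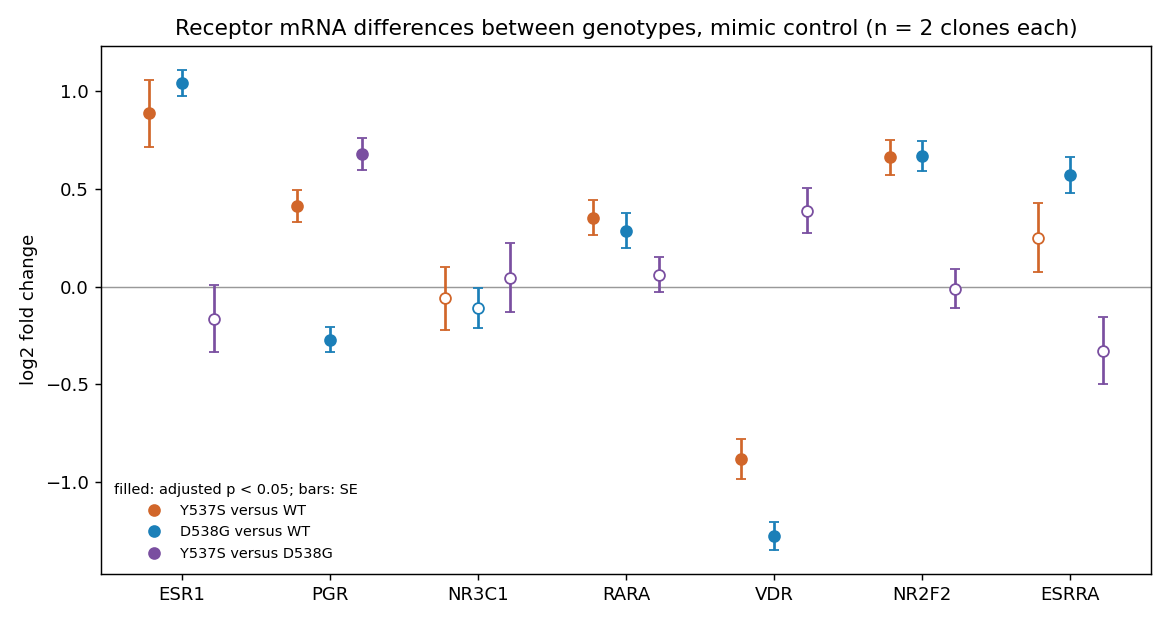
Log2 fold change of each receptor between genotypes given the mimic control (y axis, log2 scale, points with SE, 2 clones per genotype), filled where the adjusted p-value was under 0.05. ESR1 and NR2F2 lie above 0 and VDR below 0 in both mutants against WT, and the PGR points of the 2 mutants lie on opposite sides of 0.

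Per kilobase of transcript, mRNA levels in WT control cells ran from PGR (78 CPM per kb) through VDR (59.5), NR2F2 (24.1), RARA (23.6), ESR1 (18.5) and ESRRA (12.9) to NR3C1 (6.55). In D538G control cells the same scale gave ESR1 37.9 and VDR 24.6 CPM per kb, so that their order was the opposite of that in WT.

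ESR1, the gene that carries the mutation, was at 118 and 116 CPM in the WT clones D1 and D4, 241 and 239 in the D538G clones A5 and C2, and 256 and 168 in the Y537S clones 1 and 2. Both mutants were above WT without overlap, by 1.85-fold in Y537S (log2 0.88 ± 0.17, adjusted p = 0.00907) and 2.06-fold in D538G (log2 1.04 ± 0.066, adjusted p = 1.2e-05). With 2 libraries per group a lack of overlap is weak evidence, here and below, and its share over all genes was not counted. The 2 Y537S clones stood apart from each other, clone 1 being higher in all 5 of its conditions, and without clone 1 in the control ESR1 was lower in Y537S than in D538G (log2 -0.48, adjusted p = 0.00675), against -0.16 ± 0.17 (adjusted p = 0.612) with it. The allele that each transcript came from is not resolved by gene counts.

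PGR, the receptor with the highest counts of the 7, was at 1008 and 1026 CPM in WT, 1279 and 1372 in Y537S and 812 and 870.4 in D538G controls. The 3 genotypes did not overlap, with 2 libraries each. Y537S exceeded WT by 1.33-fold (log2 0.41 ± 0.080, adjusted p = 0.00873) and D538G by 1.6-fold (log2 0.68 ± 0.081, adjusted p = 0.00708), while D538G was below WT (log2 -0.27 ± 0.063, adjusted p = 0.00833). With all 24 libraries in 1 fit, D538G versus WT was -0.27 and not called (adjusted p = 0.0937). Without WT clone D1 or D4, the adjusted p for Y537S versus WT was 0.103 or 0.0804 (log2 0.39 or 0.42), and without D538G clone A5 that for Y537S versus D538G was 0.0528 (log2 0.64).

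VDR had the largest difference between D538G and WT of the 7 receptors. Controls were at 269 and 280.1 CPM in WT, 132 and 159.9 in Y537S and 118 and 109 in D538G. It was 1.84-fold lower in Y537S (log2 -0.88 ± 0.10, adjusted p = 0.00116) and 2.42-fold lower in D538G than in WT (log2 -1.27 ± 0.071, adjusted p = 6.32e-06). The gap spanned treatments: the 8 WT libraries ran from 269 CPM (median 288, highest 333), above the 10 Y537S libraries (132, 168 and 209.8) and the 6 D538G libraries (109, 125 and 136). Between the mutants VDR differed by 0.39 ± 0.12 on the log2 scale, which was not called (adjusted p = 0.1) but passed by DESeq2 (adjusted p = 0.0273) and without Y537S clone 1 (log2 0.53, adjusted p = 0.00592).

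NR2F2 went the other way. Control libraries were at 125 and 129.9 CPM in WT, 212 and 184 in Y537S and 212 and 192 in D538G, 1.58-fold (log2 0.66 ± 0.089, adjusted p = 0.00203) and 1.59-fold (log2 0.67 ± 0.075, adjusted p = 0.000177) above WT, with -0.012 between the mutants (adjusted p = 0.958). Over all treatments the highest of 8 WT libraries, 145 CPM, was below the lowest of 6 D538G (192) and of 10 Y537S libraries (171).

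RARA differed less, at 73.2 and 81.3 CPM in WT, 97 and 96.2 in Y537S and 89 and 98.9 in D538G controls. Both mutants were called higher (log2 0.35 ± 0.088, adjusted p = 0.0234, and 0.29 ± 0.089, adjusted p = 0.0313). These calls rested on few libraries: the Y537S call was lost without WT clone D1 (log2 0.27, adjusted p = 0.241) or D4 (0.42, adjusted p = 0.0781), and the D538G call without WT clone D1 (0.20, adjusted p = 0.227) or D538G clone C2 (0.21, adjusted p = 0.129). The GC correction also ended the D538G call (log2 0.23, adjusted p = 0.0623).

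ESRRA was at 28.7 and 30 CPM in WT and 45.3 and 41.7 in D538G, 1.48-fold higher in the latter (log2 0.57 ± 0.094, adjusted p = 0.00137). In Y537S the clones read 40.7 and 27.8 CPM, one above and one below the WT clones, and the difference of 0.25 ± 0.18 was not called (adjusted p = 0.322). Without Y537S clone 2 it was 0.50 (adjusted p = 0.00358), and without clone 1 ESRRA was lower than in D538G (log2 -0.61, adjusted p = 0.0101). NR3C1, the least abundant of the 7 per kilobase, was at 45.8 and 43.1 CPM in WT, 34.7 and 48.7 in Y537S and 44.4 and 37.6 in D538G, and the genotypes overlapped. Its differences of -0.061 ± 0.16 and -0.11 ± 0.10 from WT were not called (adjusted p = 0.807 and 0.421), although without Y537S clone 2 the first was -0.33 (adjusted p = 0.0317).

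**Figure D2:**
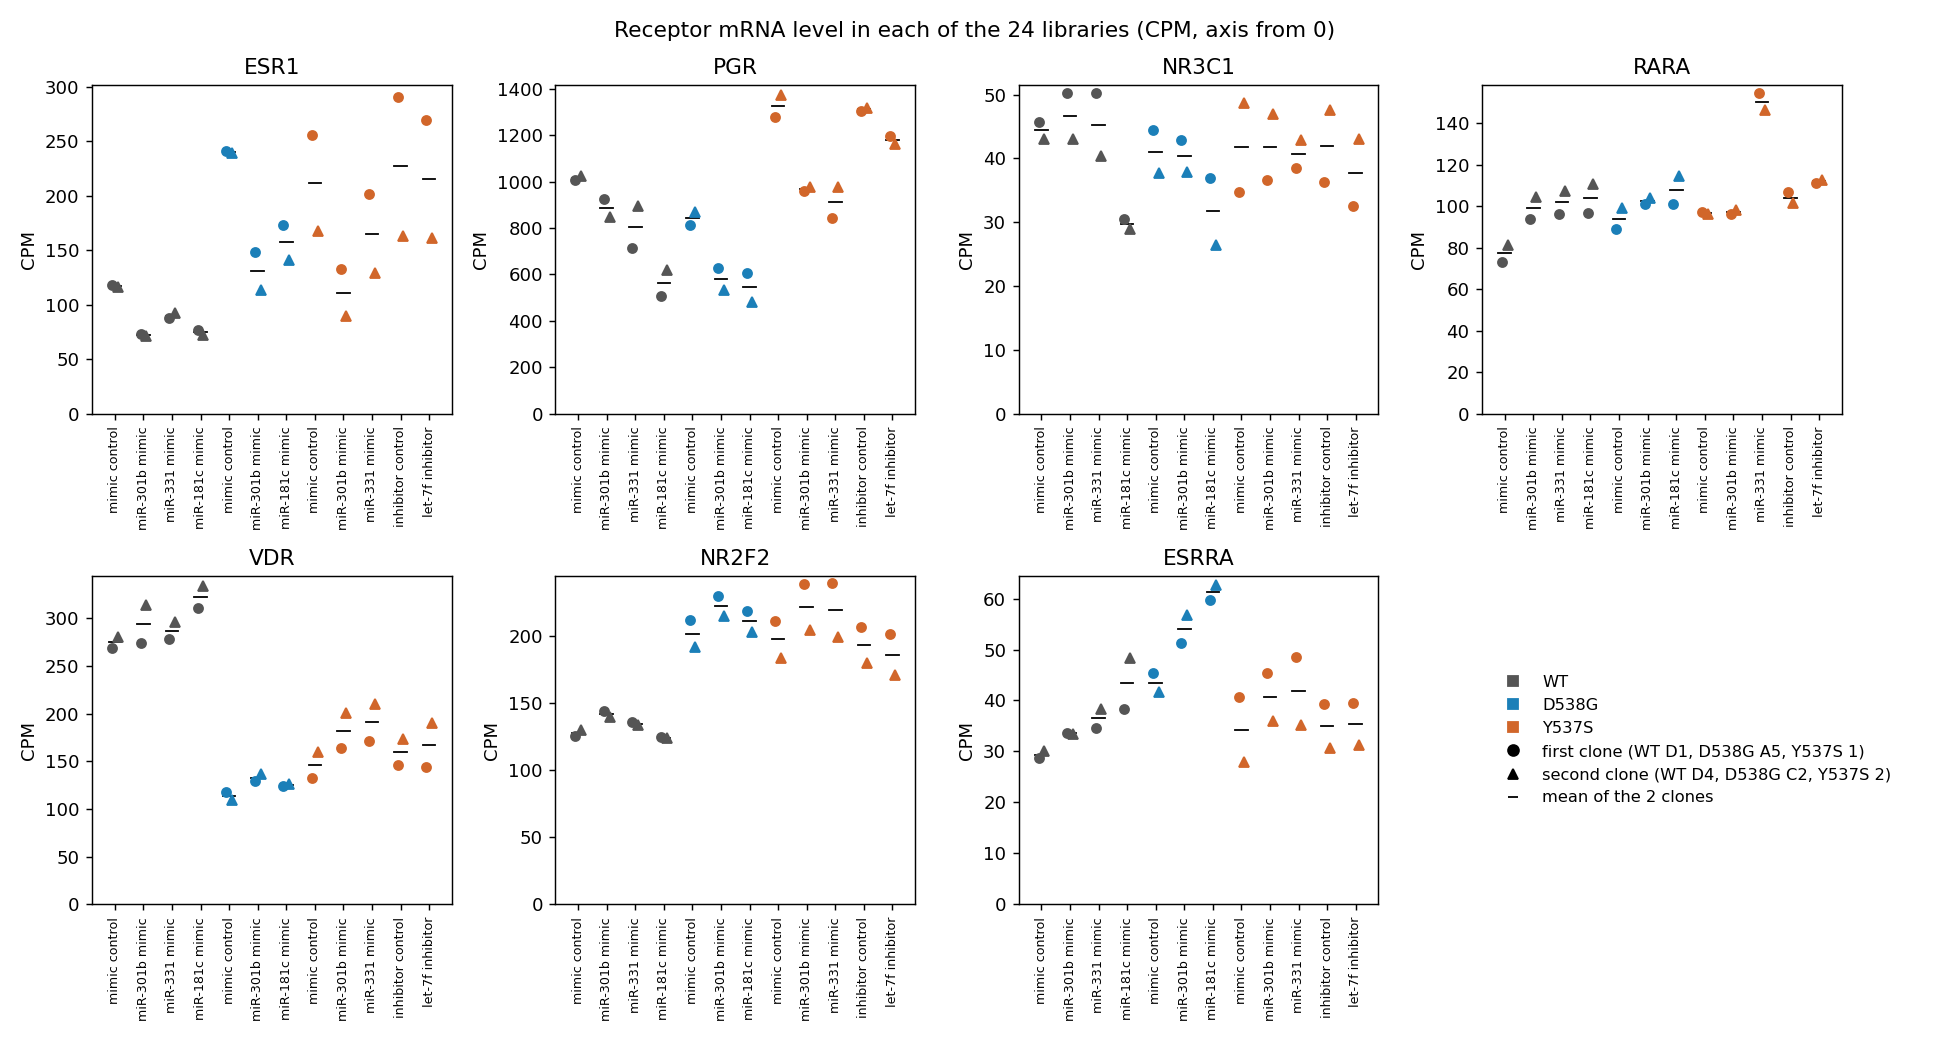
Level of each receptor in CPM (y axis, linear from 0) in the 24 libraries, by condition along the x axis and coloured by genotype, with a circle and a triangle for the 2 clones and a bar at their mean. VDR is highest and NR2F2 lowest in WT in each treatment, and ESR1 drops from the mimic control to the miR-301b, miR-331 and miR-181c mimics within each genotype.

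Each mimic was then compared with the mimic control of the same genotype, and the let-7f inhibitor with the inhibitor control, to ask which receptor transcripts respond to it. ESR1 and PGR fell, RARA and ESRRA rose where they were called, NR3C1 fell with miR-181c in WT cells, and VDR and NR2F2 were called in none of the 8 comparisons. With miR-301b, 1 receptor fell and 0 rose in Y537S (background 2.34% of all genes down and 1.23% up), 2 fell and 0 rose in D538G (6.49% and 5.29%), and 1 fell and 0 rose in WT cells (3.87% and 4.63%). miR-331 lowered 1 receptor and raised 1 in Y537S (15.8% and 17.2% of all genes), and lowered 2 and raised 2 in WT cells (10.6% and 14.2%). After miR-181c, 2 fell and 1 rose in D538G (3.95% and 5.58%), and 3 fell and 2 rose in WT cells (8.28% and 8.1%). The let-7f inhibitor gave 0 calls among the receptors, with 0% of all genes called down and 0% up by edgeR. At an unadjusted p under 0.05 it gave 1 of the 7 (PGR) and 786 of all genes, and DESeq2 called 0 of the 7 and 79 of all genes. By DESeq2 VDR was called higher in 2 comparisons, miR-331 in Y537S and miR-181c in WT cells (adjusted p = 0.0354 for the latter), and NR2F2 in none.

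A treated and a control library of one clone come from one cell line, so the fits were repeated with the clone as a block. The receptors called were then 5 for miR-301b in Y537S (38.4% of all genes called), 4 in D538G (33.3%) and 3 in WT (28.2%). For miR-331 they were 6 in Y537S (60.7%) and 4 in WT (37%), for miR-181c 6 in D538G (29.3%) and 6 in WT (27.9%), and for the let-7f inhibitor 1 (11.2%). Removal of the GC trend in the blocked fit left 5 for miR-301b in Y537S (28.3%), 2 in D538G (17%) and 2 in WT (14.7%), 5 and 4 for miR-331 in Y537S and WT (53.3% and 22.7%), 2 and 3 for miR-181c in D538G and WT (18.2% and 16.2%), and 3 for the let-7f inhibitor (10.4%). Removal of the GC trend without the block kept fewer calls, namely ESR1 with miR-301b in D538G and in WT, ESR1 with miR-331 in WT, and ESR1, PGR and NR3C1 with miR-181c in WT cells. As the background shares show, many genes pass in these blocked fits. Their p-values draw on a spread shared across genes, so a blocked call is described below with its size.

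**Figure D3:**
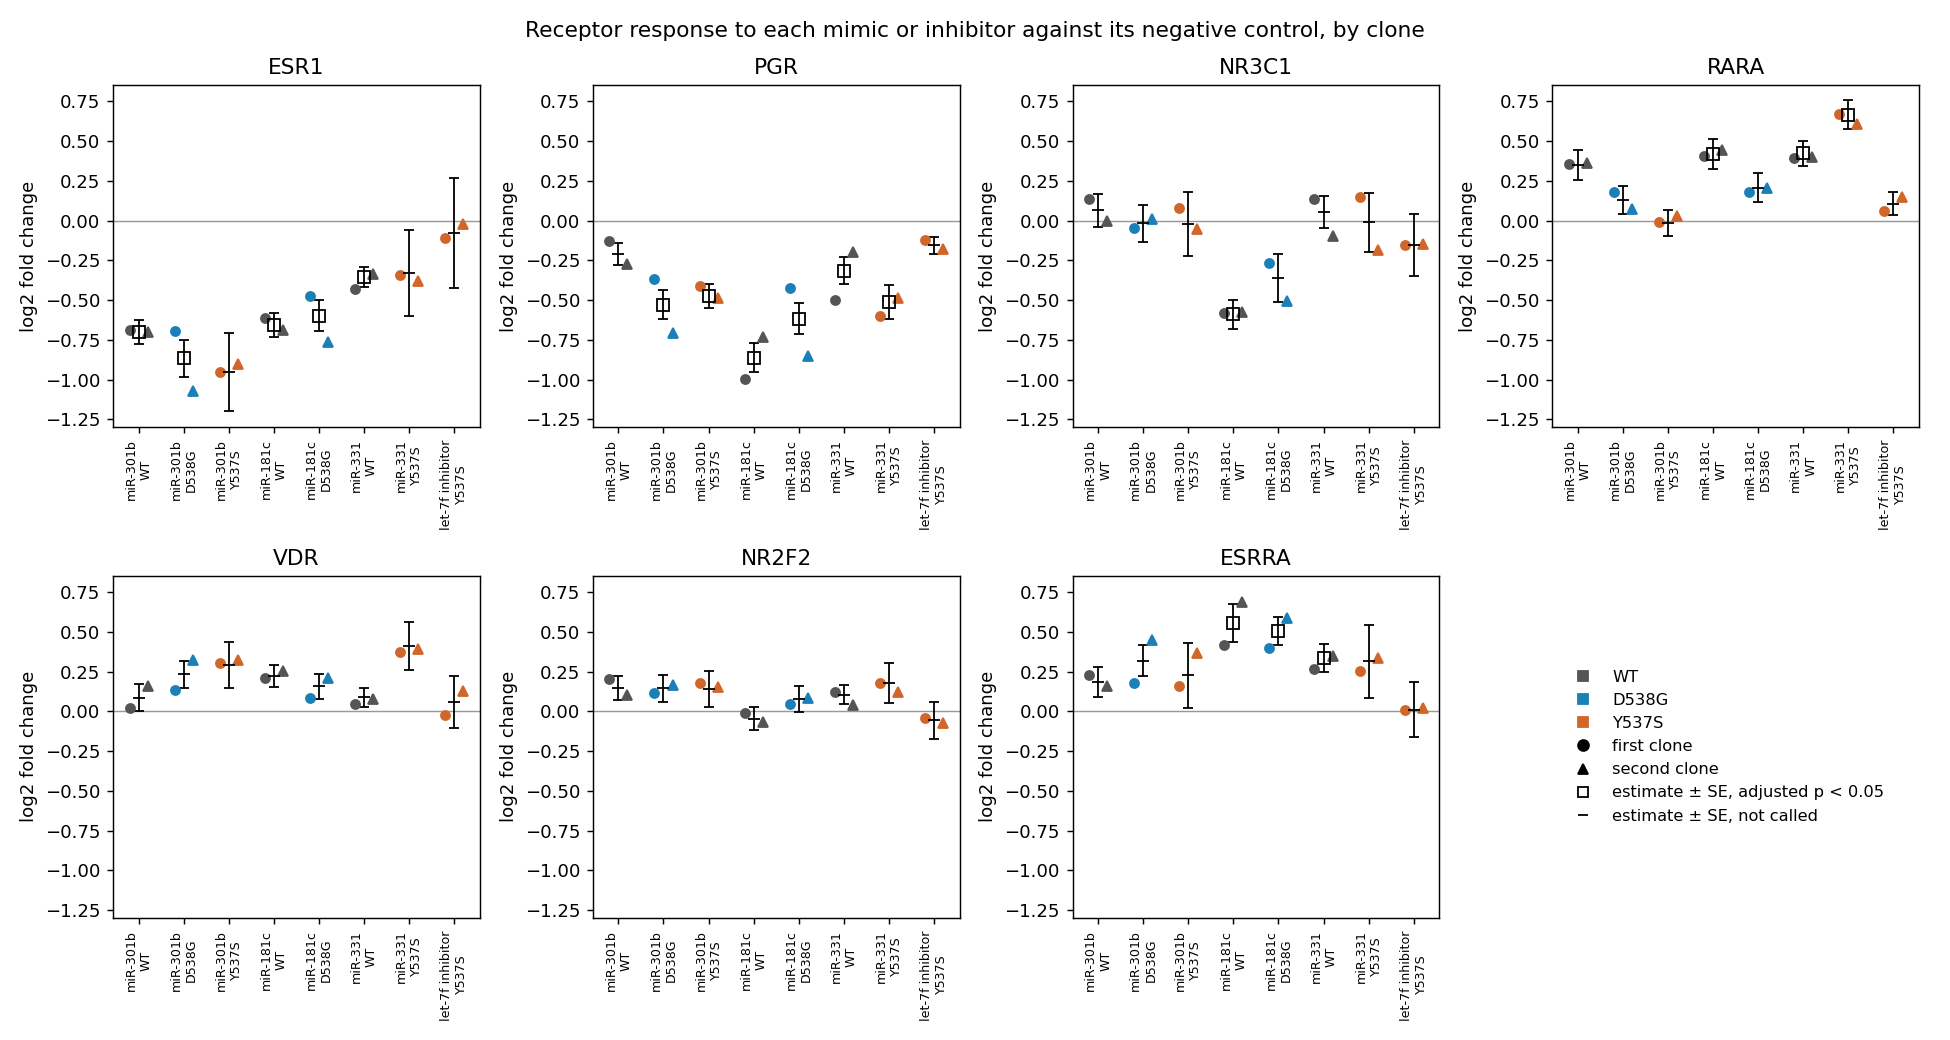
Log2 fold change of each receptor (y axis) in the 8 treatment comparisons (x axis). Circles and triangles are single clones, and the black bar with SE is the estimate over both, boxed where the adjusted p-value was under 0.05. ESR1 and PGR are below 0 in all 14 mimic-treated libraries relative to the same clone's control, and VDR and ESRRA are above 0 in all 14. The 14 pairs share the mimic controls of 6 clones, so they are not independent.

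ESR1 had its most negative log2 changes in each genotype with miR-301b, although in WT cells those with miR-301b and miR-181c lay within each other's SE. In WT cells it went from 118 and 116 to 73.1 and 71.5 CPM (clones D1 and D4, log2 -0.69 and -0.70), a change of -0.70 ± 0.076 (adjusted p = 0.00321). In D538G cells it went from 241 and 239 to 149 and 114 CPM (A5 and C2, log2 -0.70 and -1.07), a change of -0.87 ± 0.12 (adjusted p = 0.00466). Y537S clones 1 and 2 went from 256 and 168 to 132 and 89.7 CPM. Their falls were alike (log2 -0.95 and -0.90), while the clones also differed in level, and the estimate of -0.96 ± 0.25 was not called (adjusted p = 0.092), whereas with the clone as block it was -0.95 (adjusted p = 6.65e-34). DESeq2, without a block, also called it (-0.95, adjusted p = 0.000676). Without control clone 2 or treated clone 1 the unblocked value was -1.22 or -1.25. In these 2 fits the arms do not hold the same clones, so the difference in level between the clones enters the value.

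With miR-181c, ESR1 was at 173 and 141 CPM in D538G (log2 -0.60 ± 0.10, adjusted p = 0.0074) and 77 and 72.1 in WT cells (log2 -0.66 ± 0.075, adjusted p = 0.000496), below the controls of the same genotype without overlap. The miR-331 response was smaller, with 87.5 and 92.1 CPM in WT (log2 -0.36 ± 0.063, adjusted p = 0.00253) and 201 and 129 in Y537S cells (log2 -0.33 ± 0.27, adjusted p = 0.388), where the groups overlapped and the blocked fit gave -0.34 (adjusted p = 1.98e-05). ESR1 holds a match to each of these 3 seeds and none to let-7f, and whether a match is in use was not tested. The let-7f inhibitor left it at 269 and 161 CPM against 291 and 163 in the inhibitor control (log2 -0.078 ± 0.35, adjusted p = 1). With GC trend removed and the clone as block, ESR1 was called lower in all 7 mimic comparisons, between -0.89 and -0.24, and in the same fit it was also called lower with the let-7f inhibitor (-0.11, adjusted p = 0.0294). None of the 5 unblocked ESR1 calls held with all 24 libraries in 1 fit, although the log2 values were similar. That fit gave -0.87 with miR-301b (adjusted p = 0.0502) and -0.61 with miR-181c (0.207) in D538G cells. WT values were -0.69 with miR-301b (adjusted p = 0.1365), -0.65 with miR-181c (0.158) and -0.38 with miR-331 (0.43). It called ESR1 lower with miR-301b in Y537S cells (-0.93, adjusted p = 0.0311). With the clone as block it kept all 5 calls.

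PGR fell in 6 of the 7 mimic comparisons. After miR-181c it was at 505 and 618 CPM in WT (log2 -0.86 ± 0.091, adjusted p = 0.000359) and 605 and 483 in D538G cells (log2 -0.62 ± 0.10, adjusted p = 0.0069). These are its 2 largest falls. The PGR 3′ UTR has 2 miR-181c matches and 1 miR-301b match, and whether any is in use was not tested. miR-301b brought PGR to 961 and 978 CPM in Y537S (log2 -0.47 ± 0.077, adjusted p = 0.0386) and 628 and 534 in D538G cells (log2 -0.53 ± 0.091, adjusted p = 0.00883). In WT cells the same mimic gave 924 and 848 CPM, a change of -0.21 ± 0.069 that was not called (adjusted p = 0.102), although with the block it was -0.21 (adjusted p = 0.00262) and with block and GC correction -0.039 (adjusted p = 0.493).

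miR-331, for which the PGR 3′ UTR has no match, lowered PGR to 843 and 979 CPM in Y537S (log2 -0.51 ± 0.11, adjusted p = 0.0186) and 713 and 894 in WT cells (log2 -0.32 ± 0.086, adjusted p = 0.0212). Both were lessened by the GC correction in the blocked fit, to -0.26 and -0.14 (adjusted p = 1.16e-05 and 0.000242). With all 24 libraries in 1 fit and no block, the WT value was -0.34 and not called (adjusted p = 0.0708). Single libraries mattered here. The WT call was lost by DESeq2 (adjusted p = 0.123) and without treated clone D1 (-0.16, adjusted p = 0.191), and the Y537S call without control clone 2 (-0.45, adjusted p = 0.0503) or treated clone 1 (-0.39, adjusted p = 0.0695). The miR-301b call in Y537S was lost without any 1 of its 4 libraries (controls 1 and 2, -0.52, adjusted p = 0.114 and -0.41, adjusted p = 0.112, treated 1 and 2, -0.46, adjusted p = 0.13 and -0.49, adjusted p = 0.0859), and in WT it was gained without treated clone D1 (-0.27, adjusted p = 0.0188). With the let-7f inhibitor PGR was at 1196 and 1164 against 1304 and 1318 CPM, a difference of -0.15 ± 0.054 that was not called (adjusted p = 0.916) and passed with the block (-0.15, adjusted p = 0.00146).

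NR3C1, the glucocorticoid receptor gene, was called with miR-181c and with no other treatment. WT cells went from 45.8 and 43.1 to 30.5 and 28.9 CPM, a fall seen at the same size in both clones (log2 -0.58 and -0.58, estimate -0.59 ± 0.092, adjusted p = 0.00265). D538G cells went from 44.4 and 37.6 to 36.9 and 26.4 CPM (log2 -0.36 ± 0.15, adjusted p = 0.172). This passed with the block (-0.37, adjusted p = 0.000269) and not with block and GC correction (-0.20, adjusted p = 0.0708). Without treated clone A5 the unblocked value was -0.62, and the difference in level between the clones enters it. The WT fall held with block and GC correction (-0.39, adjusted p = 0.00149). With all 24 libraries in 1 fit and no block it was -0.58 and not called (adjusted p = 0.0653). The response to miR-181c was not called different between D538G and WT (difference 0.23 ± 0.19, adjusted p = 1.00).

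After miR-301b and miR-331, NR3C1 lay within the range of its controls or overlapped it, with log2 changes from -0.020 to 0.064. It is GC-poor, and with block and GC correction it was called higher with miR-331 in Y537S (0.32, adjusted p = 0.00288) and WT (0.25, adjusted p = 0.00214) and with miR-301b in WT cells (0.25, adjusted p = 0.0314), against -0.011, 0.053 and 0.064 in the fit without either.

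RARA rose with miR-331. Y537S libraries went from 97 and 96.2 to 154 and 146 CPM, the highest RARA levels of the 24 libraries (log2 0.67 ± 0.090, 1.59-fold, adjusted p = 0.00775). WT libraries went from 73.2 and 81.3 to 96.4 and 107 CPM (log2 0.42 ± 0.078, adjusted p = 0.00323). Its 3′ UTR holds 2 miR-331 matches, and whether they are in use was not tested. With block and GC correction the rise was 0.30 in Y537S (adjusted p = 0.000208) and 0.085 in WT cells (adjusted p = 0.276).

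With the other mimics the RARA calls varied between comparisons and fits. Tested as a difference of log2 fold changes, its miR-301b response in Y537S versus WT was -0.35 ± 0.13, not called. With the block this was -0.35 (adjusted p = 0.103), and with block and GC correction -0.35 (adjusted p = 0.0295). In D538G versus WT the differences of -0.22 with miR-301b and -0.21 with miR-181c were not called in these fits. miR-181c raised it in WT cells to 96.9 and 111 CPM (log2 0.42 ± 0.092, adjusted p = 0.0132), a call lost with the GC correction of the blocked fit (0.14, adjusted p = 0.124), without control clone D1 (0.34, adjusted p = 0.122) and without treated clone D4 (0.29, adjusted p = 0.0684). In D538G cells it was at 101 and 114 CPM (log2 0.21 ± 0.091, adjusted p = 0.187, with the block 0.00949). miR-301b gave 93.8 and 104 CPM in WT (log2 0.35 ± 0.092, adjusted p = 0.0529), which passed with the block (adjusted p = 0.000844) and by DESeq2 (adjusted p = 0.018). Without treated clone D1 the value was 0.42, with unlike clones in the arms. In Y537S the same mimic left RARA at 96.2 and 98.2 CPM (log2 -0.014 ± 0.083, adjusted p = 0.945), and with block and GC correction it was called lower there (-0.29, adjusted p = 4.13e-06). RARA-AS1, an antisense gene whose exons overlap those of RARA, was at 0.120 to 1.10 CPM.

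VDR was higher than the same clone's control in all 14 mimic-treated libraries, and no single comparison passed. These 14 pairs share the mimic controls of 6 clones and are not independent. The share of all genes with the same sign in all 14 was not counted. The largest change was with miR-331 in Y537S cells, from 132 and 159.9 to 172 and 209.8 CPM (log2 0.41 ± 0.15, adjusted p = 0.0907). Here the groups did not overlap, the blocked fit gave 0.41 (adjusted p = 2.07e-06), DESeq2 an adjusted p of 0.0313, and block with GC correction 0.22 (adjusted p = 0.00187). VDR holds 1 miR-331 match. In WT cells, miR-331 gave 278 and 296 CPM (log2 0.088 ± 0.059, adjusted p = 0.317). For miR-301b the changes were 0.29 ± 0.15 in Y537S, 0.23 ± 0.084 in D538G and 0.087 ± 0.082 in WT (adjusted p = 0.294, 0.103 and 0.546). Those with miR-181c were 0.16 ± 0.078 in D538G and 0.22 ± 0.071 in WT (adjusted p = 0.239 and 0.0579). With the block VDR passed in 5 of the 8 comparisons, and with block and GC correction in 2 of the 7 mimic comparisons, both in Y537S. Without treated clone 1, miR-331 in Y537S gave 0.57, and without treated clone D1 miR-181c in WT gave 0.27. In these 2 fits the arms do not hold the same clones, so the difference in level between the clones enters the value.

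ESRRA was also above its control in all 14 mimic-treated clone pairs, which share control libraries. It rose with miR-181c in WT cells, from 28.7 and 30 to 38.4 and 48.4 CPM (log2 0.56 ± 0.12, adjusted p = 0.0112), and in D538G cells, from 45.3 and 41.7 to 59.6 and 62.7 CPM (log2 0.50 ± 0.089, adjusted p = 0.0105). miR-331 raised it in WT cells to 34.6 and 38.3 CPM (log2 0.34 ± 0.088, adjusted p = 0.0184). With the block 6 of the 7 mimic comparisons passed, and with block and GC correction none did (log2 -0.15 to 0.23). At 63.8% its transcript has the highest GC content of the 7. The exons of TRMT112, on the opposite strand, overlap those of ESRRA. TRMT112 was at 106 to 220.3 CPM and was called higher in 5 of the 8 treatment comparisons, and since the strand setting of the counting is not given, reads of the 2 genes cannot be told apart where they overlap.

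The 3 ESRRA calls were lost with all 24 libraries in 1 fit without a block. That fit gave 0.49 with miR-181c in D538G (adjusted p = 0.113). In WT it gave 0.56 with miR-181c (adjusted p = 0.0584) and 0.31 with miR-331 (adjusted p = 0.308). The calls also rested on single libraries. For miR-181c in D538G the call was lost without treated clone C2 (0.47, adjusted p = 0.0622). In WT cells that for miR-181c was lost without control clone D1 (0.52, adjusted p = 0.0584), control clone D4 (0.58, adjusted p = 0.0537) or treated clone D4 (0.35, adjusted p = 0.0684), and that for miR-331 without control clone D1 (0.30, adjusted p = 0.0754) or treated clone D4 (0.27, adjusted p = 0.155).

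NR2F2 was not called with any treatment. Its log2 changes with the mimics ran from -0.046 (miR-181c in WT, 125 and 124 CPM) to 0.18 (miR-331 in Y537S, 239 and 199.7 CPM), against genotype differences of 0.66 and 0.67. With the block it passed for miR-301b (0.14, adjusted p = 0.0388) and miR-331 in Y537S (0.18, adjusted p = 0.00761). With block and GC correction it passed for miR-301b in Y537S (0.13, adjusted p = 0.0295) and miR-331 in WT cells (0.16, adjusted p = 0.00552), and was lower with the let-7f inhibitor (-0.11, adjusted p = 0.0403). NR2F2 has no match to any of the 4 seeds, and its transcript GC content is near the median of all genes.

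**Figure D4:**
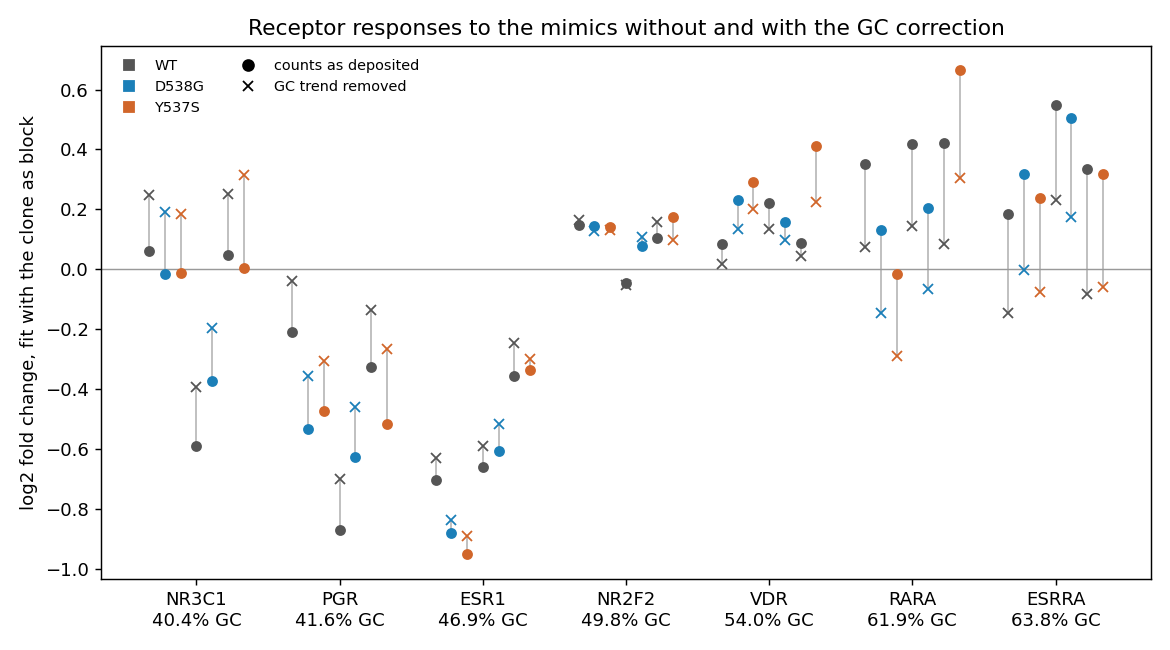
Log2 fold change of each receptor in the 7 mimic comparisons, from the fit with the clone as block (circles) and with the GC trend of each library removed as well (crosses), with receptors along the x axis by transcript GC content. Within a receptor the order is miR-301b in WT, D538G and Y537S, miR-181c in WT and D538G, and miR-331 in WT and Y537S. Crosses lie above circles for NR3C1, PGR and ESR1 and below them for VDR, RARA and ESRRA, and ESR1 stays below 0 in each comparison.

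Whether a genotype changes the response was tested as a difference of log2 fold changes. Of the 7 receptors none was called for miR-301b in Y537S versus WT (0.00632% of all genes called), in D538G versus WT (0.0064%) or in Y537S versus D538G (0%), for miR-331 in Y537S versus WT (9.94%), or for miR-181c in D538G versus WT (0.00646%). At an unadjusted p under 0.05 the counts were 2, 1, 0, 0 and 0 of 7, and DESeq2 called none either. ESR1 differed between genotypes by -0.24 ± 0.29, -0.16 ± 0.15 and -0.081 ± 0.31 for miR-301b, 0.010 ± 0.31 for miR-331 and 0.063 ± 0.13 for miR-181c, on the log2 scale. With the clone as block, RARA (0.23, adjusted p = 0.0446) and VDR (0.31, adjusted p = 0.00148) rose more, and PGR fell more (-0.21, adjusted p = 0.0246), with miR-331 in Y537S than in WT cells, where 34.1% of all genes were called. The inhibitor control and the mimic control in Y537S cells differed in 0 of the 7 receptors by edgeR and by DESeq2 (0% of all genes by edgeR, where 0 receptors and 1123 genes had an unadjusted p under 0.05), and with the block in VDR alone (0.13, adjusted p = 0.0404, 16.7% of all genes).

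Targets of the receptors were counted from short textbook lists. Of 12 ER-induced genes, 9 of 11 tested were higher and 0 lower in Y537S than in WT (median log2 1.23, all genes -0.0026, with 16.3% of all genes higher and 12.7% lower), and 9 of 11 tested were higher and 1 lower in D538G (median 0.98, all genes -0.00078, with 20.4% higher and 18.5% lower). Among them GREB1, an ER coactivator gene, was higher by 1.23 and 0.77 and MYC by 1.36 and 1.36 on the log2 scale. With miR-301b, 4 of the 12 tested fell in Y537S (median -0.56, 2.34% of all genes), 6 of 11 in D538G (median -0.48, 6.49% of all genes) and 2 of 10 in WT cells (median -0.29, 3.87% of all genes), with 0 called higher, against medians over all genes of 0.0073, 0.0055 and 0.00022. CA12, a carbonic anhydrase gene, fell with miR-301b by 0.74 in D538G and 0.87 in WT cells on the log2 scale, beside ESR1. miR-331 lowered ESR1 in WT cells while 1 of 11 of these genes rose and 0 fell (median 0.033, all genes 14.2% up and 10.6% down), and in Y537S cells 2 of 12 rose and 0 fell (17.2% and 15.8%). After miR-181c, 1 rose and 3 fell of 11 in D538G (5.58% and 3.95% of all genes), and 1 rose and 2 fell of 10 in WT cells (8.1% and 8.28%), CCND1, which encodes cyclin D1, being the one that rose in both (log2 0.29 and 0.40). The let-7f inhibitor gave 0 of 12 by edgeR and 1, lower, by DESeq2.

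The shorter lists hold 3 to 7 tested genes for the glucocorticoid and progesterone, retinoic acid and estrogen-related receptors and 1 or 2 for VDR, so their counts are small. Of the glucocorticoid and progestin list, 0 and 2 of 6 tested were higher and lower in Y537S than in WT (16.3% and 12.7% of all genes). In D538G 0 and 1 of 6 were (20.4% and 18.5% of all genes). TSC22D3, which encodes the glucocorticoid-induced leucine zipper protein GILZ, was lower in both mutants (-1.17, adjusted p = 0.0143, and -1.45, adjusted p = 2.42e-05), although PGR was higher in Y537S and lower in D538G. ZBTB16, a zinc finger repressor gene induced by both hormones, was called lower in Y537S than in WT and D538G, against the direction of PGR, from few reads: 0 and 1 counts in the Y537S clones, 20 and 62 in WT and 39 and 26 in D538G. With miR-181c in WT cells, where NR3C1 and PGR fell, 1 and 1 of 6 rose and fell (8.1% and 8.28% of all genes). FKBP5, which encodes a cochaperone of steroid receptors and is induced by both glucocorticoid and progestin, fell (-0.43, adjusted p = 0.00477) and the clock gene PER1 rose (0.42, adjusted p = 0.0309). With miR-331 in WT cells FKBP5 also fell (-0.52, adjusted p = 0.00058), the one called of 7 (10.6% of all genes fell). PGR was also called lower with miR-301b and miR-331 in Y537S and with miR-301b and miR-181c in D538G cells. There 0 of the 6 or 7 genes tested were called in either direction. The shares of all genes for these comparisons are given above.

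TRPV6, a calcium channel gene induced by vitamin D, was lower in Y537S than in WT (-0.58, adjusted p = 0.00197), as was VDR, and in D538G, where VDR was lowest, the one tested VDR target was not called. CRABP2, a retinoic acid carrier, was lower in Y537S and D538G (-0.90 and -0.51), where RARA was higher, and none of the 3 to 5 RAR targets tested was called with a treatment by edgeR or by DESeq2, although single ones were in blocked fits. Of 5 ESRRA targets 3 were higher in D538G than in WT (20.4% of all genes), namely IDH3A of the citric acid cycle (1.14), CYCS, which encodes cytochrome c (0.42), and the mitochondrial fusion gene MFN2 (0.21). Where ESRRA rose with miR-181c in WT cells, MFN2 rose (0.23, adjusted p = 0.0497, 8.1% of all genes rose) and no other of the 5 was called. With miR-331 in WT cells, where ESRRA also rose, ACADM of fatty acid oxidation and CYCS fell by 0.40 and 0.21 on the log2 scale (10.6% of all genes fell). In Y537S cells, where ESRRA was not called, miR-331 gave 1 and 2 of 5 higher and lower (median -0.57, 17.2% and 15.8% of all genes).

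The rest of the family was read from 41 other nuclear receptor genes, of which 27 to 29 passed the filter on low counts. With miR-301b, 2 rose and 0 fell of 29 tested (all genes 1.23% and 2.34%) in Y537S, 3 rose and 1 fell of 28 tested (all genes 5.29% and 6.49%) in D538G and 3 rose and 0 fell of 28 tested (all genes 4.63% and 3.87%) in WT cells. With miR-331, 4 rose and 4 fell of 29 tested (all genes 17.2% and 15.8%) in Y537S and 4 rose and 2 fell of 28 tested (all genes 14.2% and 10.6%) in WT cells. For miR-181c, 5 rose and 3 fell of 28 tested (all genes 5.58% and 3.95%) in D538G and 4 rose and 5 fell of 27 tested (all genes 8.1% and 8.28%) in WT cells, and for the let-7f inhibitor 0 rose and 0 fell of 29 tested (all genes 0% and 0%). By genotype, 0 were higher and 4 lower of 29 tested (all genes 16.3% and 12.7%) in Y537S and 3 were higher and 6 lower of 29 tested (all genes 20.4% and 18.5%) in D538G than in WT. Median log2 changes of the list in the mimic comparisons lay between 0.0065 and 0.15, and those of all genes between -0.010 and 0.010.

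NR2F6, a paralog of NR2F2, had the largest rise of the list in 4 comparisons, among them miR-331 in Y537S (from 74 and 69.8 to 148 and 128 CPM, log2 0.97 ± 0.11, adjusted p = 0.00621) and in WT cells (from 80 and 81.2 to 124 and 123 CPM, log2 0.64 ± 0.062, adjusted p = 0.000139). With block and GC correction these were 0.47, called, and -0.094, not called. It was also first with miR-301b in Y537S (0.59 ± 0.086, adjusted p = 0.0307) and with miR-181c in D538G (0.56 ± 0.085, adjusted p = 0.00588), where block and GC correction gave 0.14 and 0.026, neither called. NR2C2 (testicular receptor 4) fell the most with miR-331, from 108 and 100.2 to 47 and 54.9 CPM in Y537S (log2 -1.001 ± 0.12, adjusted p = 0.00655) and from 103 and 103 to 83.1 and 81.7 CPM in WT cells (log2 -0.30 ± 0.062, adjusted p = 0.00573). NR1D2 (REV-ERB beta), a circadian repressor, was the largest fall with miR-301b in D538G (-0.57 ± 0.11, adjusted p = 0.0155) and with miR-181c in WT cells (-0.66 ± 0.12, adjusted p = 0.00572). The shared heterodimer partner RXRA was the largest rise with miR-301b in D538G (0.50 ± 0.084, adjusted p = 0.00806), the orphan receptor NR4A1 with miR-301b in WT (0.65 ± 0.14, adjusted p = 0.0324) and PPARD with miR-181c in WT cells (0.48 ± 0.082, adjusted p = 0.00401), and PPARA, a regulator of fatty acid oxidation, fell the most with miR-181c in D538G (-0.62 ± 0.16, adjusted p = 0.0417). With block and GC correction the other changes named were still called and smaller, at -0.90 and -0.16 for NR2C2 with miR-331 in Y537S and WT, -0.29 and -0.42 for NR1D2 with miR-301b in D538G and miR-181c in WT, 0.25 for RXRA, 0.41 for NR4A1, 0.28 for PPARD and -0.55 for PPARA. The second estrogen receptor gene ESR2 ran from 0.457 to 1.82 CPM.

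Likeness of pattern was described with Pearson's r of log2 CPM over the 24 libraries, which share genotypes, clones, controls and the GC trend and are therefore not independent. The 3 genes most like ESR1 among 10063 compared were PRKD3 (r = 0.94), HBS1L (r = 0.94) and AMD1 (r = 0.93), all with a transcript GC content under that of ESR1. Most like PGR were EPT1 (r = 0.92), TMEM19 (r = 0.92) and PPP4R4 (r = 0.90), and most like NR3C1 NPEPPS (r = 0.85), MBOAT2 (r = 0.84) and PLD1 (r = 0.84). RARA was closest to PRMT1 (r = 0.94), PSMB6 (r = 0.93) and CTSD (r = 0.92), and ESRRA to LSS (r = 0.92), NADK (r = 0.92) and METRNL (r = 0.92), whose GC content was 55.2% to 65.0%. VDR was closest to ACE (r = 0.97), PLA2G15 (r = 0.97) and OS9 (r = 0.96) and NR2F2 to PKN3 (r = 0.96), CYFIP1 (r = 0.96) and SHMT1 (r = 0.95). Among the 7 themselves, VDR ran opposite to NR2F2 (r = -0.87) and to ESR1 (r = -0.82), and ESR1 and PGR had an r of 0.43.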

How the data were processed

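Poly-A RNA-seq libraries were made by the authors with a stranded kit, aligned to hg19 with HISAT2 and counted on UCSC Known Genes with featureCounts of Subread. Tool versions and the strand setting are not given in the sources used here. The deposited values are raw counts of reads per gene, not normalized, for 24 libraries with 31379962 to 50526442 counts each, and 0 columns were left unused. Columns of the D538G and WT tables carry clone names that the sample labels do not, so they were assigned to conditions and not to single samples. Some labels write the Y537S genotype with its digits transposed, and the titles were followed.

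Each comparison was fitted on its own libraries with edgeR 4.0.16 (R 4.3.3): TMM, filterByExpr at its defaults, quasi-likelihood F test, two-sided, Benjamini-Hochberg over all genes tested, called under 0.05. The SE is the log2 fold change divided by the square root of F. Log2 CPM used a prior count of 2. Script steps were tested on simulated data. Alternatives were DESeq2 1.42.0, RLE size factors, no filter, all 24 libraries in 1 fit, removal of a lowess trend (span 0.3) of log2 CPM on transcript GC content, the clone as replicate block, and leaving out each library. Libraries of one clone come from one cell line, and the difference between clones in treated and control libraries correlated across genes at 0.17 to 0.59, so the clone was taken to pair them. The variance between the clones of a condition was 11.2 to 48.3 times that of counting noise (chi-squared per degree of freedom). P-values of the fits without a block measure the spread between 2 clones, grown as separate lines. In the blocked fits the difference in level between the clones is taken out. With so few libraries, the spread in those fits is set largely by a dispersion shared across genes. Those p-values therefore do not measure how far the 2 clones differ in their response. For ESR1 with miR-301b in D538G, the clone changes were -0.70 and -1.07 while the blocked SE was 0.066.

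Gene symbols were matched to GENCODE 44 lifted to GRCh37, 22494 directly and 1345 by an older symbol, and 2525 found no match. Transcript length, GC content and 3′ UTR are those of the canonical or else the longest transcript. The 7 receptors and the gene lists were chosen with earlier results of these data known. Of the other nuclear receptors, those named are the largest called rise and fall per treatment at a mean level of 1 log2 CPM or more, targets are named only where called together with their receptor, and the 3 most alike genes come from those whose mean level is 3 log2 CPM or more.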

Additional observations from a re-analysis of the deposited data

Results flagged for a closer look

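The response to miR-331 differed between Y537S and WT cells for 3 receptors when the clone was taken as a block (a test of the difference of log2 fold changes). RARA rose more in Y537S, by 0.23 (adjusted p = 0.0446), with log2 changes of 0.67 and 0.60 in the 2 Y537S clones and 0.40 and 0.40 in the 2 WT clones. VDR rose more, by 0.31 (adjusted p = 0.00148), with 0.37 and 0.39 against 0.047 and 0.079. PGR fell more, its difference being -0.21 (adjusted p = 0.0246), with -0.60 and -0.49 against -0.50 and -0.20, which overlap. Without the block the adjusted p-values of edgeR were 0.264, 0.271 and 0.439, and with block and GC correction they were 0.0457, 0.0461 and 0.0719. With the block 34.1% of all genes were called in this comparison.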

How the results depend on the processing

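Counts of receptors called are given where they moved by more than 1.5 times. Of the 7, the number called was 5 for miR-301b in Y537S, 6 for miR-331 in Y537S, 1 for the let-7f inhibitor, 4 for miR-301b in D538G, 6 for miR-181c in D538G, 3 for miR-301b in WT, 1 for the 2 controls and 3 for the miR-331 response in Y537S versus WT with the replicate block, against 1, 2, 0, 2, 3, 1, 0 and 0 without it in the same order. It was 5 for miR-301b in Y537S, 5 for miR-331 in Y537S, 3 for the let-7f inhibitor, 2 for miR-301b in WT, 3 for miR-181c in WT, 2 for the 2 controls, 2 for the miR-301b response in Y537S versus WT, 1 for the miR-301b response in D538G versus WT and 2 for the miR-331 response in Y537S versus WT with the replicate block and GC correction, 0 for miR-301b in Y537S, 0 for miR-331 in Y537S, 1 for miR-301b in D538G, 0 for miR-181c in D538G, 1 for miR-331 in WT and 3 for miR-181c in WT with the GC correction alone, and 2 for miR-301b in Y537S, 1 for miR-301b in D538G, 1 for miR-181c in D538G, 1 for miR-331 in WT and 2 for miR-181c in WT with all 24 libraries in 1 fit. The latter with the replicate block gave 5 for miR-301b in Y537S, 6 for miR-331 in Y537S, 5 for miR-301b in D538G, 5 for miR-181c in D538G, 3 for miR-301b in WT and 2 for the miR-331 response in Y537S versus WT. DESeq2 gave 2 for miR-301b in Y537S, 2 for miR-301b in WT and 2 for Y537S versus D538G, with smaller moves to 3 for miR-331 in Y537S, 3 for miR-331 in WT and 6 for miR-181c in WT, and no filter gave 3 for miR-301b in WT and 2 for Y537S versus D538G. RLE size factors moved none of the counts and changed no receptor's call. Leaving out 1 library gave 0 to 1 for miR-301b in Y537S, 1 to 2 for miR-331 in Y537S, 2 to 4 for miR-181c in D538G, 1 to 3 for miR-301b in WT, 3 to 4 for miR-331 in WT, 3 to 6 for miR-181c in WT, 3 to 7 for Y537S versus WT, 5 to 6 for D538G versus WT and 0 to 4 for Y537S versus D538G, and left the counts of the other comparisons as they were. In those fits one arm has a lone sample, assumed to vary like the other arm. For a treatment the arms then do not hold the same clones, so a difference in level between clones enters the value.

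The direction of a receptor's change turned as follows, on the log2 scale, in values that were not called in the main comparison except ESRRA with miR-331 in WT. NR3C1 with the GC correction was 0.18 (miR-301b in Y537S), 0.30 (miR-331 in Y537S) and 0.19 (miR-301b in D538G), and with the block as well 0.19 (miR-301b in Y537S), 0.32 (miR-331 in Y537S) and 0.19 (miR-301b in D538G). ESRRA was -0.080 (miR-301b in Y537S), -0.067 (miR-331 in Y537S), -0.00085 (miR-301b in D538G), -0.15 (miR-301b in WT) and -0.079 (miR-331 in WT), and -0.074 (miR-301b in Y537S), -0.060 (miR-331 in Y537S), -0.0027 (miR-301b in D538G), -0.15 (miR-301b in WT) and -0.081 (miR-331 in WT) with the block. RARA was -0.15 (miR-301b in D538G) and -0.068 (miR-181c in D538G), and -0.15 (miR-301b in D538G) and -0.067 (miR-181c in D538G) with the block. With all 24 libraries NR3C1 and RARA with miR-301b in Y537S were 0.0030 and 0.0088, and with the block 0.0098 and 0.0090. NR3C1 with miR-331 in Y537S was 0.0039 by DESeq2 and 0.0046 with the replicate block. Without 1 library, ESR1 ranged -0.67 to 0.00011 (miR-331 in Y537S), -0.50 to 0.39 (the let-7f inhibitor) and -0.48 to 0.10 (Y537S versus D538G), NR3C1 -0.24 to 0.25 (miR-301b in Y537S), -0.23 to 0.26 (miR-331 in Y537S), -0.13 to 0.10 (miR-301b in D538G), -0.057 to 0.18 (miR-301b in WT), -0.12 to 0.21 (miR-331 in WT), -0.33 to 0.17 (Y537S versus WT) and -0.23 to 0.0059 (D538G versus WT), RARA -0.028 to 0.0068 (miR-301b in Y537S), VDR -0.0097 to 0.18 (miR-301b in WT) and -0.0073 to 0.28 (the 2 controls), NR2F2 -0.00036 to 0.16 (miR-181c in D538G) and -0.10 to 0.077 (Y537S versus D538G) and ESRRA -0.015 to 0.53 (miR-301b in Y537S) and -0.043 to 0.50 (Y537S versus WT). The cause was not tested. The 2 clones per condition limit the precision more than depth does, since the receptors are well counted in each library.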
